A study of Capra hircus with 12 samples.

Results

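Small RNA libraries of secondary hair follicles (SHFs), the small follicles that grow cashmere, were compared between telogen, the resting phase (February and March), and mid-anagen, the phase of fiber growth (September). The comparison took every miRNA listed for the goat that exceeded 5 CPM (the count per 1000000 counts of its library) in at least 2 of the 4 telogen and 2 September libraries, which 284 of the 376 listed miRNAs did. Of these 284 miRNAs, 266 carried goat miRNA names and 18 were listed by a number only. All goats were Liaoning cashmere goats aged 1.5 years, and no group received a treatment. Telogen comprised a female and a male library for February and for March, and September comprised 1 female and 1 male library. The SHFs were cut out of scapular skin under a dissecting microscope, so cells attached to the follicle could be included. The study took 3 male and 3 female goats per time point but its text does not give how they were combined into libraries, so p-values measure only the spread between these libraries, which may be technical. Phase, month and season cannot be told apart, since each phase was sampled in its own months. In RNA from whole follicles, fewer cells of a type and less RNA per cell also cannot be told apart. Just outside the limit were miR-18a-3p, with a second-highest level of 4.96 CPM, and let-7c-3p with 4.84 CPM, and just inside were novel_182 with 5.08 CPM and miR-25-5p with 5.41 CPM.

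A miRNA is a short RNA that guides the silencing machinery to matching mRNAs and lowers their output. Each is cut from a hairpin precursor whose 2 arms, named 5p and 3p, can both give a mature miRNA, usually at very unequal levels, and several precursors are often cut from a single primary transcript. In hair follicles, miRNAs such as miR-203, which restrains the proliferation of keratinocytes, and miR-125b, which restrains commitment of skin stem cells, are known to act in the cycle between rest and growth.

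The 6 libraries held 4133390 to 5788032 counts, and the floor of 3 counts corresponded to a TPM of 0.518 to 0.726, so counting error matters only for miRNAs of low abundance. The authors' TPM is the count scaled by the library total. The factors of TMM, a normalization that assumes that most miRNAs keep their level, were 1.01 to 1.23 in telogen but 0.848 and 0.912 in September. Changing from TMM to library totals moved all log2 fold changes by a median of -0.33, so results are given under both scalings. Log2 fold changes are September minus telogen with the standard error (SE) of the fit, and a miRNA was called with an adjusted p under 0.05 and at least a 2-fold change.

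From telogen to September, 26 of the 284 miRNAs were called after TMM normalization, 13 higher in September and 13 higher in telogen. Over all 300 miRNAs tested in the series, 9.33% were called, 4.67% in each direction. With library totals 40 were called, 4 higher in September and 36 higher in telogen (14% of all tested, 1.33% and 12.7% by direction). The calls common to both scalings numbered 17 (6% of all tested). Those higher in September were miR-184, miR-27a-5p, miR-195-3p and novel_587, and the other 13 were higher in telogen. The 9 calls made with TMM alone were all higher in September, and the 23 made with library totals alone were all higher in telogen. Over the 284 miRNAs, the median log2 fold change was 0.03 with TMM and -0.29 with library totals. All calls used edgeR's quasi-likelihood test with Benjamini-Hochberg adjustment.

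**Figure D1:**
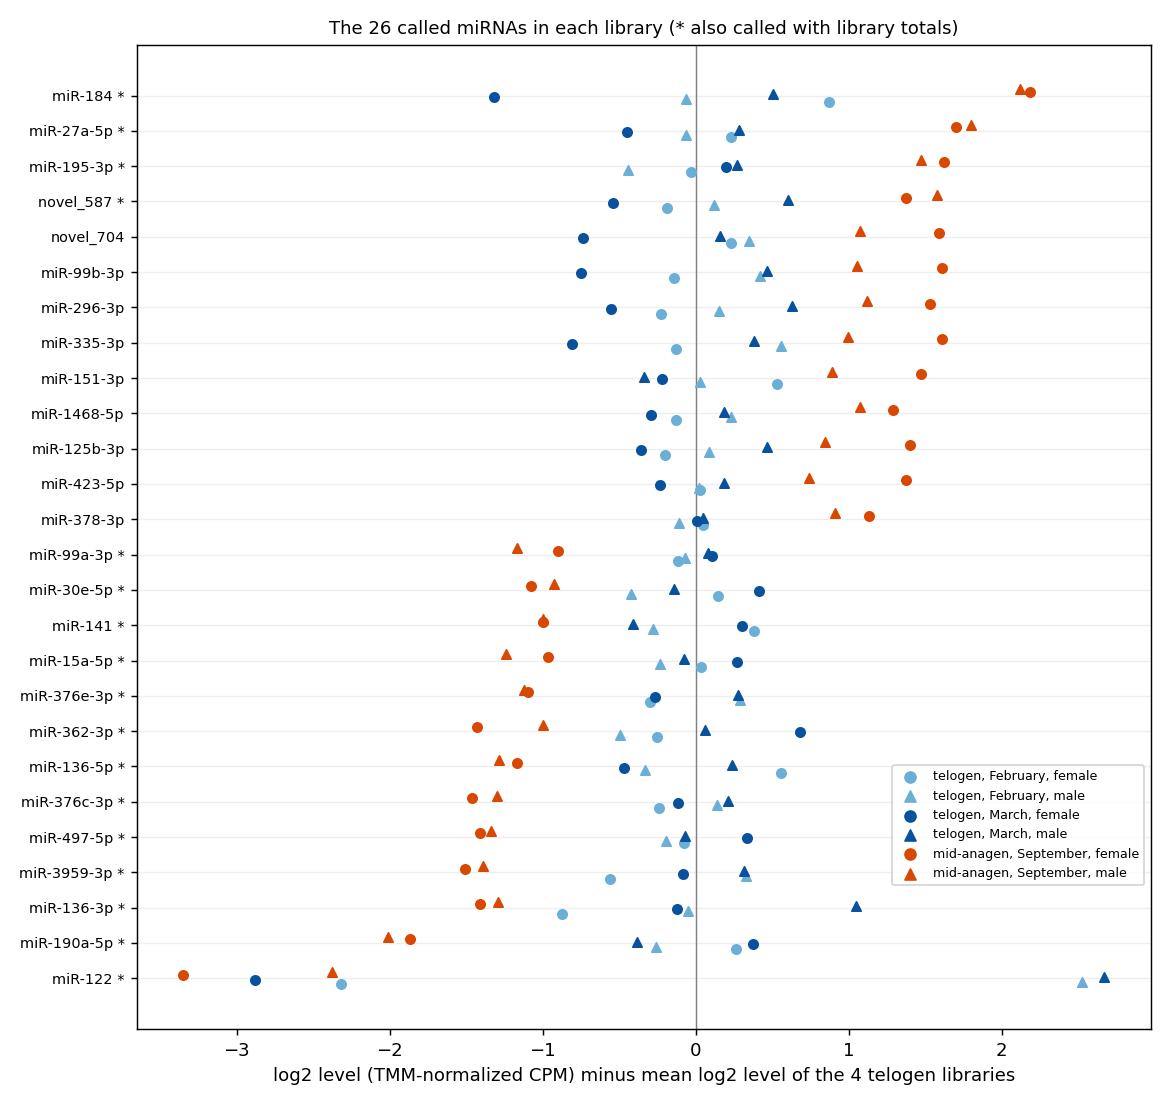
The 26 called miRNAs, 1 per row, with the log2 TMM-normalized CPM of each library minus the mean of the 4 telogen libraries on the x axis, circles for female and triangles for male libraries, blue for telogen and orange for September. In 25 rows the orange points lie apart from all blue points. In the row of miR-122 only the 2 male telogen libraries stand to the right.

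Among miRNAs higher in September, miR-184, which is best known from epidermis and cornea, had the largest change. Its TMM-normalized CPM was 193 and 42.5 in the female and 102 and 150.6 in the male telogen libraries (February, then March), and 481 and 459 in the female and male September libraries. Telogen libraries thus spanned a wide range, yet all were below both September libraries. The log2 fold change was 1.95 (SE 0.56, adjusted p = 0.0234) with TMM and 1.61 (adjusted p = 0.0479) with library totals, and the call was lost without the male February library or either September library.

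miR-27a-5p, the minor arm of a precursor in the miR-23a cluster, had a CPM of 136 and 84.7 in the female and 111 and 141 in the male telogen libraries, against 377 and 403 in September. The groups were separated by a gap larger than the range within either. It rose by a log2 fold change of 1.72 (SE 0.21, adjusted p = 0.000509). With library totals the change was 1.39 (adjusted p = 0.00273).

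miR-195-3p, the more abundant arm here of a precursor named in the miR-15/16 family, was at 13.4 and 15.7 in the female telogen libraries, 10.04 and 16.5 in the male ones, and 42.1 and 37.9 in September. Both September libraries exceeded every telogen library by more than 2-fold. The log2 fold change was 1.52 (SE 0.21, adjusted p = 0.00102), or 1.19 (adjusted p = 0.00365) with library totals. The fourth call common to both scalings, novel_587, is listed by a number only, and had 52.5 to 116 CPM in telogen and 198 and 228 in September (log2 fold change 1.42, SE 0.26, adjusted p = 0.00285).

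The remaining 9 miRNAs higher in September had log2 fold changes of 1.03 to 1.30 with TMM and 0.69 to 0.95 with library totals, below the 2-fold limit. Of these, miR-378-3p, which is cut from an intron of the gene of a metabolic coactivator, was the most even within the groups. It had 2341 and 2272 CPM in the female and 2101 and 2339 in the male telogen libraries, and 4953 and 4261 in September. Telogen libraries differed little from each other and none came near the September level. Its log2 fold change was 1.03 (SE 0.13, adjusted p = 0.000509), at the edge of the 2-fold limit, and 0.69 with library totals. The call was lost in 8 of 16 settings, the most of all 26 calls. Among these were DESeq2, a filter of 50 CPM, and leaving out the male February, male March or female September library.

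miR-151-3p, from an intron of the focal adhesion kinase gene, was at 3068 and 1820 CPM in the female telogen libraries, 2160 and 1675 in the male ones, and 5886 and 3924 in September. The ranges did not overlap, and the female library was the higher of the September pair. Its change was 1.17 (SE 0.25, adjusted p = 0.00708).

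Some of these calls were on the less abundant arm of their precursor. miR-125b-3p, such an arm, had 87.2 to 155 CPM in telogen and 295 and 201 in September, a change of 1.12 on the log2 scale (SE 0.22, adjusted p = 0.0043). With library totals its libraries overlapped. miR-99b-3p, likewise a minor arm, had 4.72 to 10.997 CPM in telogen and 24.2 and 16.5 in September, a change of 1.28 (SE 0.30, adjusted p = 0.0119). miR-335-3p, from an intron of the imprinted gene MEST and the major arm, was at 55.5 to 143 in telogen and at 296 and 193 in September, a change of 1.25 (SE 0.30, adjusted p = 0.0119). In each of these miRNAs the female September library was well above the male one. miR-296-3p (1.27), novel_704 (1.30), miR-1468-5p (1.17) and miR-423-5p (1.08) completed the group, and none of their libraries overlapped with TMM. The call of miR-423-5p was lost in 6 of 16 settings, DESeq2 among them.

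The largest log2 fold change toward telogen was that of miR-122, the main miRNA of the liver, but it did not describe all of telogen. Its CPM was 64.0 and 70.9 in the male telogen libraries, and 2.23 and 1.51 in the female ones, against 1.09 and 2.14 in September. Female telogen and September libraries overlapped. The log2 fold change was -4.39 (SE 1.46, adjusted p = 0.0438), and without either male telogen library too few libraries exceeded 5 CPM for a test. Male minus female, the change differed by -4.19 (SE 0.88, unadjusted p = 0.000951, adjusted p = 0.114, edgeR's quasi-likelihood test). Among other liver and gut miRNAs, miR-192-5p was at 396, 311, 395 and 350 CPM in the female February, male February, female March and male March libraries, and miR-194 was at 382, 275, 415 and 306. These were picked after their values were seen. Over the 6 miRNAs of the liver, gut and pancreas list the median log2 fold change was -0.65 (-0.97 with library totals), and 1 was positive (miR-192-5p, 0.60). miR-215-5p was at -0.88, miR-217-5p at -0.76, miR-194 at -0.55 and miR-216b at -0.24. The part of RNA from other tissue in the miR-122 level was not tested.

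miR-190a-5p, which lies in an intron of a talin gene, was the largest change toward telogen that all libraries shared. Its CPM was 24.9 and 26.8 in the female and 17.3 and 15.9 in the male telogen libraries, and 5.68 and 5.14 in September. Every telogen library was above both September libraries, and the female telogen libraries were the highest. The log2 fold change was -1.97 (SE 0.34, adjusted p = 0.00253), and -2.28 (adjusted p = 0.00273) with library totals.

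By name, without regard to arm, the miR-15/16 family had called miRNAs on both sides, but the 1 higher in September was a 3p arm. miR-497-5p fell from 21.8 to 31.5 CPM in telogen to 9.39 and 9.86 in September (log2 fold change -1.39, SE 0.26, adjusted p = 0.00285). miR-15a-5p fell from 102 to 144 CPM to 61.4 and 50.6 (-1.11, SE 0.22, adjusted p = 0.0043). Neither overlapped between the groups. Of the 11 miRNAs with names of this family, miR-195-3p was called higher in September and these 2 higher in telogen (4.67% of all tested in each direction). The other arm of the same precursor, miR-195-5p, was at -1.03 with TMM, on the side of these 2, and was not called. The family's median was -0.13 (-0.48 with library totals), and the abundant miR-16a-5p was at -0.13 (SE 0.13, adjusted p = 0.461). miR-16a-5p had 3617 to 4701 CPM in telogen and 3735 and 3892 in September.

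miR-141, a member of the miR-200 family that maintains the epithelial state, had 420 and 399 CPM in the female telogen libraries, 267 and 244 in the male ones, and 162 in both September libraries. It fell by 1.04 on the log2 scale (SE 0.28, adjusted p = 0.0193). The difference in female libraries was -1.34 and in male libraries -0.66. miR-30e-5p, from an intron of the NF-Y subunit gene NFYC, had 3476 and 4198 CPM in the female and 2351 and 2859 in the male telogen libraries, against 1492 and 1656 in September (log2 fold change -1.03, SE 0.27, adjusted p = 0.0171). For miR-30e-5p the difference was -1.36 in female and -0.65 in male libraries. Both calls were lost when the female March library or either September library was left out, and that of miR-141 also without the female February library. Both were also lost with sex as a term in the fit, and that of miR-141 in a fit of the 6 libraries alone.

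miR-99a-3p, the minor arm of a precursor whose other arm is among the 10 most abundant miRNAs, showed the smallest spread of the calls toward telogen. It was at 102 and 119 CPM in the female and at 105 and 117 in the male telogen libraries, and at 59.4 and 49.3 in September. The change was -1.03 on the log2 scale (SE 0.19, adjusted p = 0.00285). miR-362-3p, from an X-linked cluster, was near the limit of the rule with 3.35 to 7.55 CPM in telogen and 1.75 and 2.36 in September (-1.25, SE 0.41, adjusted p = 0.0393).

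Of the 23 miRNAs called with library totals alone, the largest changes were those of miR-369-3p (-1.42), let-7i-3p (-1.39), miR-135a (-1.36), miR-195-5p (-1.34) and miR-106a-5p (-1.30). With TMM they were at -1.04, -1.07, -1.06, -1.03 and -0.96 on the log2 scale, with adjusted p of 0.0305 for miR-106a-5p and of 0.0649 to 0.102 for the other 4 (edgeR's quasi-likelihood test). miR-369-3p had 33.9 and 40.7 TPM in the female and 72.5 and 129 in the male telogen libraries, and 22.8 and 28.7 in September. All telogen libraries were above September, the male ones by more.

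The imprinted DLK1-DIO3 region, whose many miRNAs are expressed from the maternal chromosome, gave 26 of the 284 miRNAs by a list of names. None was called higher in September and 4 were called higher in telogen, and with library totals 0 and 5. Over all 300 miRNAs tested, 14 (4.67%) were called higher in telogen with TMM and 38 (12.7%) with library totals. The 4 of 26 with TMM were a larger share than this background, and the 5 of 26 with library totals were closer to it. The list was not tested as a set. The median log2 fold change was -0.27 with TMM and -0.65 with library totals, beside 0.03 and -0.29 over all 284. miR-136-3p had 17.7 and 29.8 CPM in the female and 31.3 and 67.2 in the male telogen libraries, and 12.2 and 13.3 in September (-1.51, SE 0.45, adjusted p = 0.027). miR-136-5p had 29.8 to 60.8 CPM in telogen and 18.3 and 16.9 in September (-1.29, SE 0.36, adjusted p = 0.0197). Both arms of this precursor were thus lower in September in all libraries. miR-376c-3p, at 17.9 to 24.4 CPM in telogen and 7.64 and 8.57 in September, was the most even of them (-1.38, SE 0.26, adjusted p = 0.00285). miR-376e-3p (-1.13), and miR-3959-3p (-1.49) from the same run of genes but not on the list, were also called.

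The summed TPM of the 45 listed miRNAs of the region included those under the limit of 5 CPM. It was 813 to 3058 in telogen and 1132 to 1212 in September, so the telogen range enclosed the September values. With TMM the sum was 781 to 2483 in telogen and 1329 to 1335 in September, enclosed likewise. For miR-379-5p, the most abundant of the list, the CPM was 310, 481, 234 and 874 in the female February, male February, female March and male March libraries, and 593 and 497 in September. The male March library was the highest and the female telogen libraries were lower than September. With the changes of opposite sign in the sexes, the log2 fold change of miR-379-5p was 0.20 (SE 0.39, adjusted p = 0.719), and male minus female it differed by -1.57 (unadjusted p = 0.00874, adjusted p = 0.17).

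**Figure D2:**
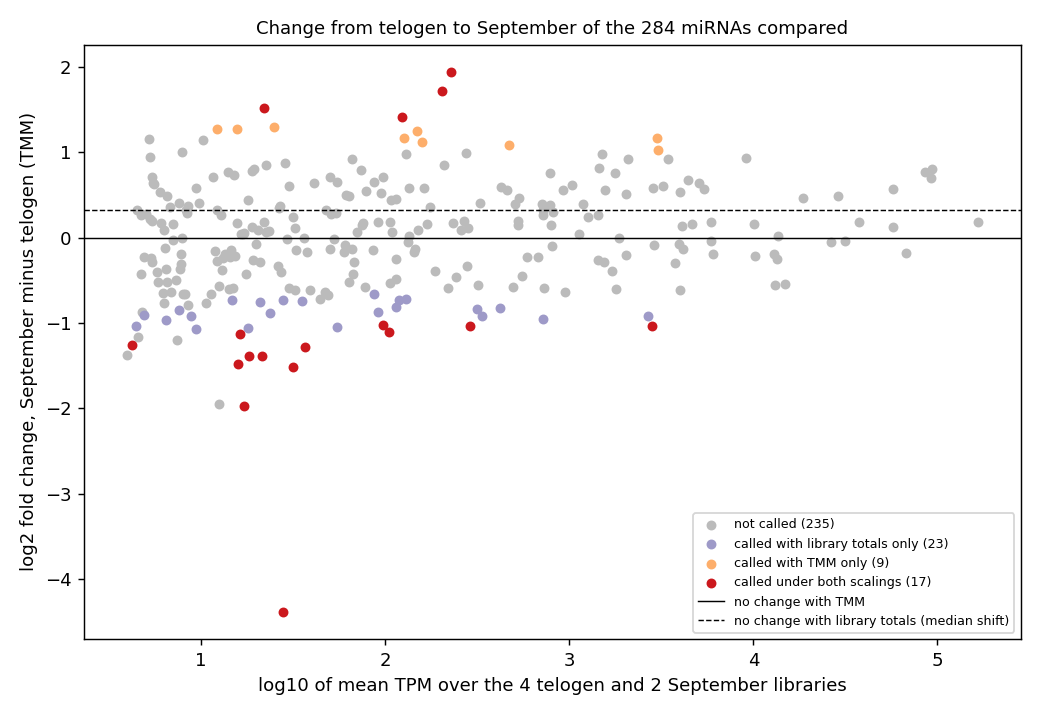
Log2 fold change from telogen to September (y axis, TMM) against the log10 of the mean TPM over the 6 libraries (x axis), 1 point per miRNA, colored by the scaling under which it was called. The dashed line marks where no change lies with library totals, and the 9 orange points called with TMM alone and the 23 purple points called with library totals alone lie on opposite sides of both lines.

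The called miRNAs had a median of 67.3 for the mean TPM over the 6 libraries, beside 64.7 for all 284. None of the 19 miRNAs with a mean TPM over 10000 was called, and 3 of 39 between 1000 and 10000, 9 of 66 between 100 and 1000, 13 of 105 between 10 and 100, and 1 of 55 under 10. The standard errors were smallest where nothing was called, with a median of 0.16 over 10000 TPM and 0.36 under 10 TPM. The median log2 fold change was -0.13 between 10 and 100 TPM, where 9 of the 13 calls were higher in telogen, and 0.15 between 100 and 1000 TPM, where 7 of 9 were higher in September. This difference in direction between the ranges was not tested. With library totals these medians were -0.43 and -0.20. The libraries of the groups did not overlap in 132 of the 284 miRNAs with TMM and in 143 with library totals (46.3% and 49.7% of all tested). For 132 of the 284 (46.5%), again with TMM, the 95% interval of the change lay wholly within 2-fold.

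Changes smaller than 2-fold were common. An adjusted p under 0.05 without a fold limit was reached by 74 miRNAs, 44 higher in September and 30 higher in telogen (25.3% of all 300 tested, 15% and 10.3% by direction). Among the 10 most abundant miRNAs, miR-27b-3p, of the miR-23b cluster, had 61235 and 69300 CPM in the female and 68295 and 75951 in the male telogen libraries, and 112053 and 122119 in September (log2 fold change 0.77, SE 0.11, adjusted p = 0.00113). It was the clearest change among the abundant miRNAs, and it was 0.43 (adjusted p = 0.0479) with library totals. miR-143-3p, known from smooth muscle and mesenchyme, had 82795 and 88938 CPM in the female and 80620 and 54451 in the male telogen libraries, and 129229 and 119575 in September, a change of 0.70 (SE 0.16, adjusted p = 0.0111). With library totals it was 0.38 (adjusted p = 0.0585). miR-148a-3p ranged from 54555 to 115710 in telogen and was at 158922 and 106883 in September, so the groups overlapped (0.81, SE 0.29, adjusted p = 0.0582). miR-26a-5p, the most abundant miRNA, was at 0.18 (SE 0.20, adjusted p = 0.506), and miR-203 at 0.12 (SE 0.18, adjusted p = 0.634). For miR-203 the 95% interval was -0.28 to 0.52.

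**Figure D3:**
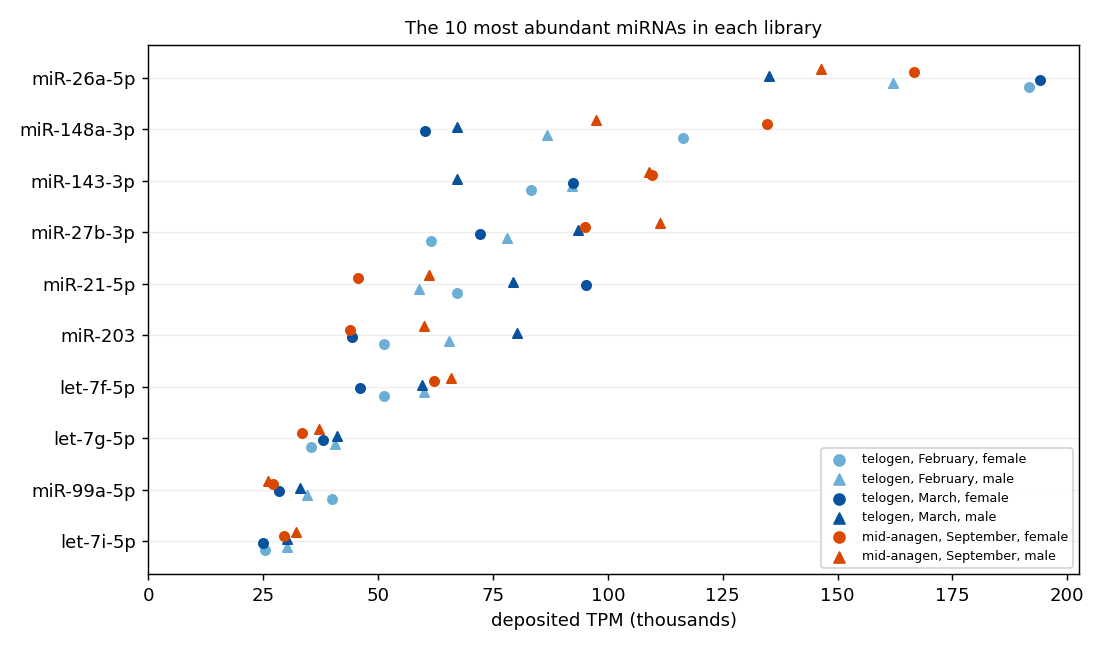
Deposited TPM (x axis, in units of 1000) of the 10 most abundant miRNAs in each of the 6 libraries, circles for female and triangles for male, blue for telogen and orange for September. The September points of miR-143-3p and miR-27b-3p lie above all telogen points, and those of miR-26a-5p and miR-203 lie among them.

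In the September libraries, the counts were concentrated in fewer miRNAs. The 10 most abundant miRNAs held 72.5%, 71.0%, 69.7% and 68.6% of the counts in the female February, male February, female March and male March libraries, and 74.8% and 74.7% in September. Both September libraries were above all telogen libraries. The difference was 4.26 percentage points (70.5% ± 1.66 in telogen, SD, n = 4, and 74.7% ± 0.0723 in September, n = 2, exact two-sided permutation p = 0.0667, the smallest that the 15 arrangements of the libraries can give). For the 25 most abundant miRNAs the difference was 0.789 points (exact two-sided permutation p = 0.133). In mean TPM, all gains from telogen to September summed to 120239, or 12.02% of the total. miR-148a-3p made up 27.8% of that sum, miR-27b-3p 22.3% and miR-143-3p 21.2%. The largest loss was that of miR-21-5p, a miRNA of wounded and proliferating skin, with a mean TPM of 75139 in telogen and 53384 in September, and miR-26a-5p followed with 170786 and 156576. miR-21-5p had 67111 and 95217 TPM in the female and 58855 and 79372 in the male telogen libraries, and 45658 and 61110 in September, which overlapped.

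A ratio of both arms within a library does not depend on the scaling. Both arms were present for 75 precursors, and the log2 ratio of 5p over 3p counts (with 1 added to each count) differed between telogen and September in 33 of them (44% of all 75, adjusted p under 0.05, limma). In 25 the 3p arm gained (33.3%) and in 8 the 5p arm (10.7%). In 26 of the 33, the TMM log2 fold changes of the arms had opposite signs, and 30 had ratios that did not overlap between the groups. Calling on these same ratios largely fixes such a separation in advance. It was also seen in precursors that were not called, such as miR-423, miR-10b and miR-424. The shift was at least 1 on the log2 scale in 19 of the 33.

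The largest shift was that of miR-195. Its log2 ratio was -0.98 and -1.30 in the female and -2.00 and -1.65 in the male telogen libraries, and -3.90 and -3.89 in September. The September libraries were nearly equal and far below every telogen library. The ratio changed by -2.41 (SE 0.33, adjusted p = 1.21e-05, limma), with the low 5p arm at -1.03 (SE 0.45, adjusted p = 0.102) and the 3p arm rising. The 5p arm rested on as few as 11 counts in a library.

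For miR-30e the log2 ratio fell from 3.72 and 4.15 in the female and 3.71 and 4.09 in the male telogen libraries to 1.53 and 2.36 in September, a change of -1.98 (SE 0.33). Here the dominant 5p arm fell and miR-30e-3p was at 0.99 (SE 0.24, adjusted p = 0.012), just under the 2-fold limit. The lowest count of either arm was 857, so this shift did not rest on few counts. miR-106b, of a cluster known for cell cycle targets, shifted by -1.63 (SE 0.28), from 2.01 to 2.51 in telogen to 0.50 and 0.70 in September. Neither of its arms was called alone with TMM: miR-106b-5p was at -0.92 (adjusted p = 0.00801) and miR-106b-3p at 0.71 (adjusted p = 0.004). miR-143 shifted by -1.53 (SE 0.26), from -7.52 to -7.25 in telogen to -9.19 and -8.59 in September.

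Toward the 5p arm, miR-27a shifted by 1.85 (SE 0.29, adjusted p = 4.42e-05, limma). The log2 ratio was -4.42 and -5.19 in the female and -4.41 and -4.39 in the male telogen libraries, and -2.58 and -2.93 in September. Its major arm miR-27a-3p was at -0.09 (SE 0.17, adjusted p = 0.706), with a 95% interval of -0.45 to 0.27, while the minor arm rose. let-7i (1.52), miR-532 (1.39), miR-7 (1.22) and miR-338 (1.14) shifted the same way. In each of these the 5p arm was the major one, and the 3p arm had a negative log2 fold change with TMM. The lowest count of either arm was 20 for let-7i, 60 for miR-532, 15 for miR-7 and 67 for miR-338. The more abundant arm exchanged in 1 of the 33 precursors, miR-374a, whose log2 ratio was 0.13 to 0.62 in telogen and -0.95 and -0.86 in September. Of the 33 shifts, 13 were called in all 6 fits that each left out 1 library.

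**Figure D4:**
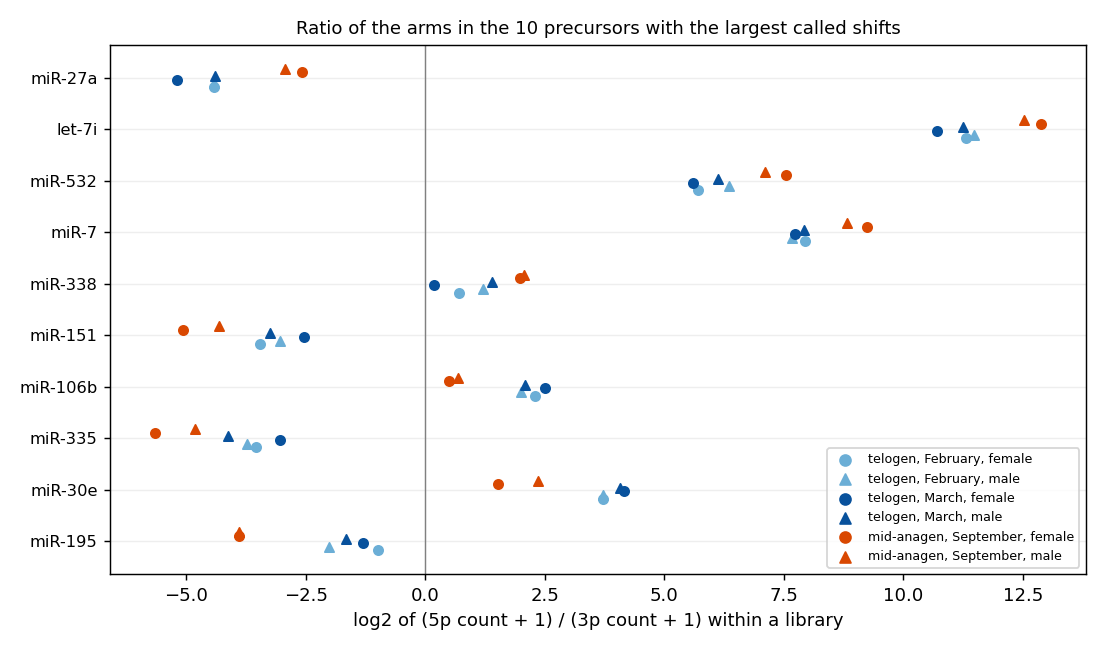
Log2 ratio of 5p over 3p counts (x axis, 1 added to each count) for the 5 precursors with the largest called shifts in each direction, 1 point per library, circles for female and triangles for male, blue for telogen and orange for September. In all 10 rows the September points lie outside the telogen points, to the right for miR-27a, let-7i, miR-532, miR-7 and miR-338 and to the left for the others.

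miRNAs whose genes neighbour each other did not all change alike. Neighbours were taken as genes within 10 kb in the RefSeq annotation of ARS1.2, which matched 261 of the 266 named miRNAs and is another assembly than the one the authors mapped to. The log2 ratio of miR-15a-5p over its neighbour miR-16a-5p was -5.26, -5.15, -4.94 and -5.11 in the female February, male February, female March and male March libraries, and -5.92 and -6.26 in September. This ratio is within a library and so does not depend on the scaling. The ratio of miR-141 over miR-200c was -4.15 ± 0.47 in telogen (SD, n = 4) and -5.11 ± 0.11 in September (n = 2). miR-200c itself was at -0.03 (SE 0.12, adjusted p = 0.836), with 5413 to 6092 CPM in telogen and 5894 and 5298 in September. miR-30e-5p over miR-30c-5p went from 0.81 ± 0.18 to -0.21 ± 0.28, and miR-99a-3p over let-7c-5p from -5.27 ± 0.36 to -6.48 ± 0.13. In each of these 4 pairs the ratios of the groups did not overlap. The other arm of the miR-99a precursor, miR-99a-5p, was at -0.03, beside 0.16 for let-7c-5p. The pairs were chosen because a member was called, so the ratios are a description and have no test. The reading of near-identical family members, such as those of let-7, miR-30 and miR-15/16, is uncertain where they share reads, since the assignment of such reads is not given in the sources used here.

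**Figure D5:**
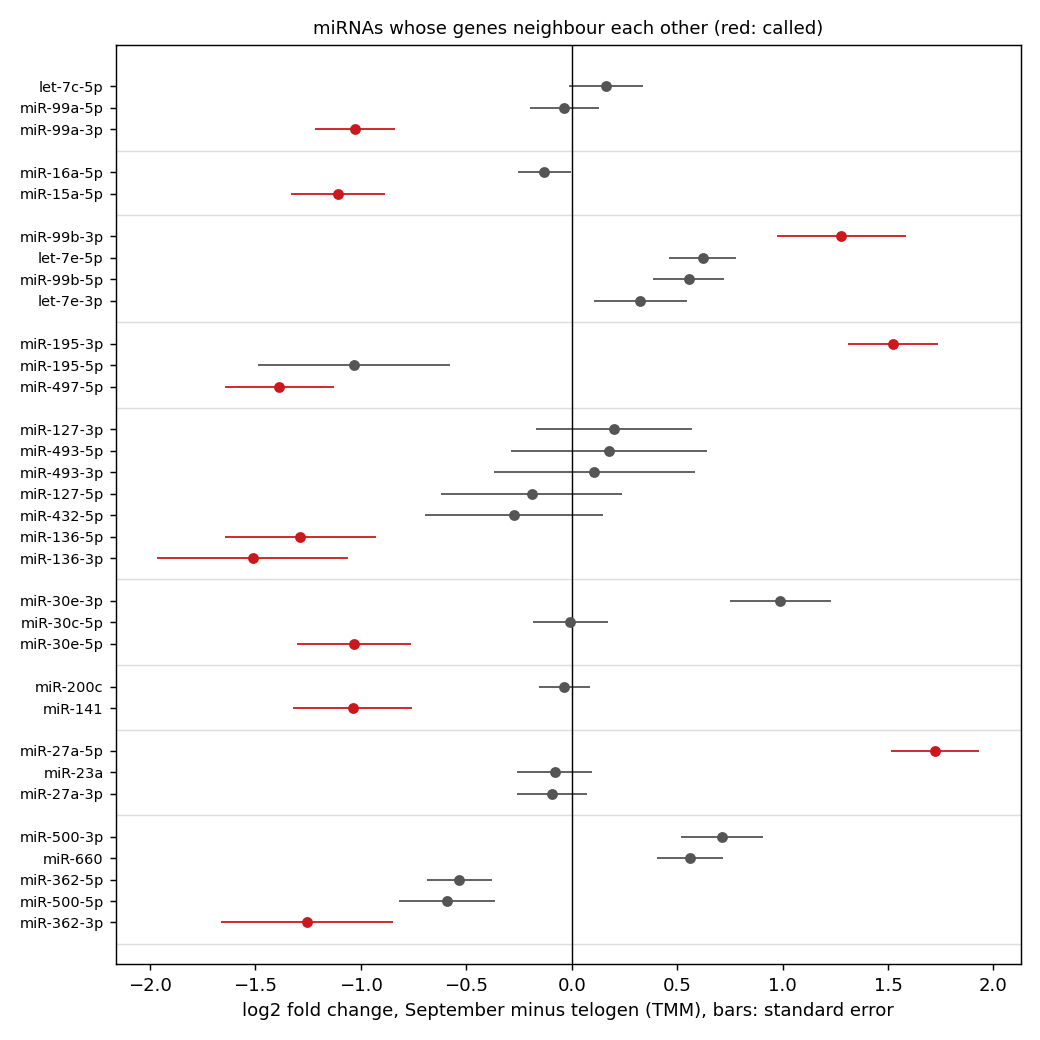
Log2 fold change from telogen to September (x axis, TMM, bars are standard errors) of miRNAs from 9 groups of neighbouring genes, separated by grey lines, with called miRNAs in red. miR-195-3p and miR-497-5p lie on opposite sides of 0 within a group, and miR-195-5p lies on the side of miR-497-5p. miR-16a-5p and miR-200c lie near 0 beside called neighbours, and miR-27a-3p lies near 0 beside the called other arm of its own precursor.

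Of 8 names of epidermal and keratinocyte miRNAs, 7 were listed for the goat and all 7 entered the comparison. miR-205 was not listed. Their summed TPM was 57973 to 96872 in telogen and 57143 to 73019 in September. With TMM the sum was 55725 to 78630 and 67392 to 80051, which also overlapped. miR-184 was called higher in September and miR-141 higher in telogen, and miR-200a reached an adjusted p of 0.015 with a log2 fold change of 0.76 (SE 0.19). The list's median was 0.18, or -0.15 with library totals. Of the 9 miRNAs of smooth muscle and mesenchyme none was called with TMM, and with library totals 2 were called higher in telogen (miR-143-5p and miR-214-5p). Over all 300 tested, 9.33% were called with TMM, and 12.7% were called higher in telogen with library totals. At an adjusted p under 0.05 alone, 1 of the 9 was higher in September (miR-143-3p) and 4 higher in telogen (15% and 10.3% of all tested). These included both arms of miR-199a, a mesenchymal miRNA, each at -0.55, and miR-214-5p at -0.87 (SE 0.22, adjusted p = 0.0132). The list's summed TPM was 123496 to 146840 in telogen and 140852 to 141278 in September. With TMM the sum was 100854 to 141146 in telogen and 154416 to 166616 in September, without overlap. Most of the sum was miR-143-3p, with a mean TPM of 83784 in telogen and 109324 in September. By in situ hybridization, the paper located miR-143-3p in the matrix of the follicle.

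Markers of other cells that skin could contain were measured in the same way. Of 8 leukocyte, 5 muscle, 2 endothelial and 2 erythrocyte miRNAs none was called with TMM, and with library totals only the muscle miRNA miR-133a-5p was (-1.22, adjusted p = 0.0438). Over all 300 tested, 9.33% were called with TMM and 14% with library totals, so lists this short may hold no call. Summed leukocyte TPM was 5174 to 13437 in telogen and 12364 to 13213 in September, and summed muscle TPM 1902 to 3614 and 3389 to 3461. With TMM the leukocyte sum was 4974 to 10907 in telogen and 14486 to 14581 in September. The muscle sum with TMM was 1544 to 3474 and 3716 to 4081. These 2 sums thus overlapped with library totals but were higher in September without overlap with TMM. The endothelial and erythrocyte sums overlapped under both scalings. The erythrocyte miRNA miR-144-5p had 4.98, 12.01, 10.8 and 31.0 CPM in the female February, male February, female March and male March libraries, and 3.49 and 4.07 in September (-1.94, SE 0.77, adjusted p = 0.0748). It was highest in the male March library, where the summed level of the DLK1-DIO3 list was also highest, and its part in the results was not tested.

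Among 13 miRNAs known from work on the hair cycle, miR-125b-3p was the only call with TMM (9.33% of all 300 tested were called). It is the less abundant arm of its precursor, and the more abundant arm, miR-125b-5p, was at 0.15 and not called. miR-29a-3p, whose family restrains hair follicle stem cells, had 3377 and 4638 CPM in the female and 2297 and 1941 in the male telogen libraries, and 1568 and 1675 in September. All telogen libraries were above September, the female ones by more. The log2 fold change was -0.92 (SE 0.29, adjusted p = 0.0313), and it was called with library totals (-1.21, adjusted p = 0.00745). miR-24-3p was at -0.20 (SE 0.12, adjusted p = 0.25) and miR-22-3p at 0.52 (SE 0.22, adjusted p = 0.09). The list's median was -0.17, or -0.49 with library totals. None of the 15 let-7 and miR-98 miRNAs was called with TMM, nor any of the 15 of the miR-17-92 and related clusters, whose medians were 0.16 and -0.45. With library totals 1 and 4 of them were called, all higher in telogen, as were 12.7% of all tested. The medians were then -0.17 and -0.76, so that of let-7 changed sign. miR-25-3p (0.65, adjusted p = 0.00285) and miR-92a-3p (0.92, adjusted p = 0.0197) of these clusters were higher in September by less than 2-fold, and miR-106a-5p (-0.96, adjusted p = 0.0305) and miR-106b-5p were lower by less than 2-fold.

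Both telogen months were also compared with September on their own. Against February, 19 miRNAs were called, 11 higher in September and 8 higher in telogen (6.67%, 4% and 2.67% of all tested). Against March there were 27, 14 higher in September and 13 higher in telogen (9.33%, 4.67% and 4.67%). The months shared 11 calls, 6 higher in September and 5 higher in telogen. These comparisons use the same September libraries and are not independent. All 26 calls had the same sign in both months, and 14 of them were called against February and 19 against March.

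Likewise, all 26 calls had the same sign in the female and in the male libraries. Calling on these same libraries largely fixes this in advance, as it does for the months. Of the 26, 11 were at least 2-fold in both sexes. These were miR-184, miR-27a-5p, miR-195-3p, novel_587 and miR-151-3p, and, higher in telogen, miR-15a-5p, miR-136-5p, miR-376c-3p, miR-497-5p, miR-3959-3p and miR-190a-5p. No change differed between the sexes at an adjusted p under 0.05 (edgeR's quasi-likelihood test, lowest 0.114), where 54 of the 284 had an unadjusted p under 0.05 (18.3% of all tested), and 47 with library totals. miR-146a, a miRNA of innate immune signaling, had 1080 and 1061 CPM in the female and 521 and 513 in the male telogen libraries, and 453 and 604 in September. Its level was about the same in male telogen and in September, and about 2-fold higher in female telogen. Male minus female, its change differed by 1.47 (SE 0.32, unadjusted p = 0.00114, adjusted p = 0.114). For miR-193b-3p, with 216 and 248 CPM in the female and 318 and 355 in the male telogen libraries and 291 and 161 in September, that difference was -1.39 (SE 0.29, unadjusted p = 0.000896, adjusted p = 0.114).

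The count of calls rested on the female September library. Without it 6 miRNAs were called, all among the 26: miR-27a-5p, miR-195-3p and novel_587 higher in September, and miR-99a-3p, miR-15a-5p and miR-190a-5p higher in telogen. Without the male September library 25 were called, 15 of them among the 26. miR-27a-5p, miR-195-3p, novel_587 and miR-190a-5p were called under every setting in which they were tested. Among telogen libraries, those of a sex resembled each other more than those of a month by Pearson correlation across the 284 log2 levels. It was 0.993 between the female and 0.991 between the male libraries, 0.987 between the sexes in February and 0.971 in March. By chi-square per degree of freedom on the counts, where lower is more alike, this did not hold for the female February library. The values in the same order were 522, 257, 286 and 667.

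Levels in the other phases of the year are given beside these for the calls kept under every setting. miR-27a-5p had a mean CPM of 118 in telogen, 101 in May (early anagen), 390 in September and 346 in catagen (November and December). For miR-195-3p these means were 13.9, 12.7, 40.0 and 36.3, and for novel_587 they were 79.7, 112, 213 and 181. For miR-190a-5p, in the same order, they were 21.2, 14.9, 5.41 and 9.17. In all 4, the catagen mean was nearer to September than to telogen.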

How the data were processed

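Small RNA of SHFs was sequenced by the authors in 12 libraries, 1 per sex in each of 6 months. Per the labels, reads were assigned with Bowtie 0.12.9, and the paper's text names mirDeep2, miREvo and the assembly CHIR_2.0. For every miRNA and library the authors deposited its raw count and its TPM. That TPM is the count scaled to the library total to within 0.005. Reads carry no molecular identifiers, so floors cover counting error only. How reads that match several miRNAs were assigned is not given in the sources used here.

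Tests on the counts used edgeR 4.0.16 in R 4.3.3. miRNAs with more than 5 CPM in at least 2 of the 12 libraries (300) entered a single quasi-likelihood fit of 4 groups (telogen, May, September, catagen), so that the 2 September libraries borrow the spread of the other groups. September was tested against telogen with TMM and again with library totals, with p-values adjusted over the 300. Months were tested in a fit of 6 month groups, and the sex difference in a fit of phase by sex. The SE was taken as the size of the log2 fold change over the root of its F statistic. Levels are TMM-normalized CPM (prior count 1 where a log2 was taken), and differences within a sex are of mean log2 levels. Arm ratios were tested with limma 3.58.1. The share of the top 10 was tested by exact permutation over libraries.

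The miRNAs, lists and tests were chosen with earlier results of these data known. Named were all calls, the 5 with the largest change among those called with library totals only, the 10 most abundant miRNAs, those of the study text or known from hair follicles, the 5 largest arm shifts in each direction, and the extremes of 30 lists of families, clusters and cell types. miR-192-5p, miR-194, miR-193b-3p, miR-25-3p, the arm ratios of miR-143 and miR-374a, the miRNAs next to the 5 CPM limit and the neighbouring pairs were named after their values were seen. On simulated counts with 4-fold changes, the comparison of telogen with September recovered 58 of 58 changed miRNAs and called 0 of 226 unchanged ones, the sex difference recovered 40 of 58 and called 3 of 232, and arm ratios recovered 18 of 20 and called 0 of 62. All calls between telogen and September except miR-122 were smaller than 4-fold, so the simulation does not show how well changes of their size are recovered. Alternatives were other normalizations and filters, DESeq2 1.42.0, sex as a term, the 6 libraries alone, and leaving out libraries. Mature sequences were not used here.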

Additional observations from a re-analysis of the deposited data

Results flagged for a closer look

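In the 4 telogen libraries, 177 values (those of the named miRNAs and the arm ratios) were examined for a library far from the other 3, by its gap to the nearest library over the whole range (Dixon's 95% limit for 4 values). 5 passed, where chance alone passes about 1 in 20 such groups. In the female March library, let-7i-3p was at 14.2 CPM after TMM normalization, against 9.05 to 9.82 in the others, miR-96 was at 10.9 CPM against 5.12 to 5.498, and the log2 arm ratio of miR-27a was -5.19 against -4.42 to -4.39. In the male March library, miR-411a-5p of the DLK1-DIO3 region was at 113 CPM against 43.5 to 50.6, and miR-125a-3p was at 5.89 CPM against 3.94 to 3.96. None of these 4 miRNAs was called between telogen and September with TMM, and the arm shift of miR-27a was called without the female March library too (1.66, adjusted p = 0.000217, limma).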

How the results depend on the processing

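Scaling by library totals gave 40 calls, 4 higher in September and 36 higher in telogen. DESeq2 called 21 higher in telogen (32 in all), a filter of 50 CPM gave 16 calls (8 and 8), and a fit of the 6 libraries alone gave 8 higher in telogen (18 in all). Without a minimum fold change there were 74 (44 and 30). By choices made after seeing the data, leaving out both male telogen libraries gave 50 calls (26 higher in September, 24 higher in telogen), and leaving out both female ones gave 20 higher in telogen. Leaving out single libraries gave 6 to 35 calls, 3 to 19 higher in September and 3 to 21 higher in telogen, each lowest without the female September library. When either September library was left out, the calls against February ranged from 2 to 7 and those against March from 0 (edgeR's quasi-likelihood test without the female one, with 61 miRNAs at an unadjusted p under 0.05) to 17, beside 41 against March under library totals. Over all 75 precursors, arm shifts ranged from 14 to 32, and 17 of 27 pairs were called when both arms exceeded 50 CPM. miR-409-5p, at -0.23 and not called, was called at 1.30 without both male telogen libraries. The share of the 25 most abundant miRNAs differed by 0.789 points. With sex as a term 25 were called, 24 of them among the 26. No paired analysis by animal was possible. The paper selected goats of the same age at each time point, and the labels do not link libraries of different months by animal. Apart from libraries left out, the causes of these differences were not tested.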
